A study of Rattus norvegicus with 2 samples.

Results

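Voltage-gated calcium channels, voltage-gated sodium channels and HCN channels, the hyperpolarization-activated cation channels of the pacemaker current, were followed in the rat hypothalamus before and at puberty. All genes named Cacn, Scn followed by a digit, or Hcn followed by a digit in the deposited comparison table were taken. These were 44 of the 22777 genes of the mRNA table, with 62 of its 26324 transcripts. The hypothalami came from female Sprague Dawley rats, killed under pentobarbital sodium in both groups, and the sources used here name no other agent and no altered gene. The prepubertal rats were at postnatal day 25, and the pubertal rats were at postnatal day 35, in their first estrus by vaginal smear. The methods give 3 rats per stage, but a single column of values stands for each of them. The spread between rats is thus unknown and there is no replicate check. No gene was therefore tested, and "higher" and "lower" below compare these 2 libraries only.

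Calcium channels are built around a pore-forming alpha1 subunit, whose class sets the voltage at which the channel opens and where it works in the neuron. An extracellular alpha2delta and a cytosolic beta subunit bring the pore to the membrane, and the gamma family includes the TARPs, which are auxiliary subunits of AMPA-type glutamate receptors. Sodium channels consist of a large alpha subunit, which forms the pore and starts the action potential, and small beta subunits, which anchor and tune it. HCN channels open on hyperpolarization and shape the rhythmic firing of neurons, including neuroendocrine cells.

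Levels are given as FPKM, fragments scaled to transcript length and to the number of mapped fragments, summed over the transcripts of a gene. Over all mRNAs the FPKM summed to 772759 before puberty and 805045 at puberty. The number of fragments behind a value is not given, so the depth is unknown and the counting error could not be computed. Differences are log2 ratios of FPKM + 1, pubertal over prepubertal, a scale that understates differences of low genes. Genes of the hypothalamus list were all detected, among them Pmch (1675 and 2723 FPKM, prepubertal and pubertal), Oxt (411 and 686 FPKM) and Hcrt (196 and 249 FPKM). This list of 14 neuropeptide and regulator genes had 12 members higher at puberty and a median log2 ratio of 0.27 as deposited.

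Of the 44 channel genes, 31 were lower at puberty, 12 were higher and 1, Cacng6, was listed at 0 in both libraries. The median log2 ratio was -0.13, against 0 for all 22777 genes. Actb itself had 763 FPKM before and 576 FPKM at puberty. With the pubertal library scaled to equal Actb (a factor of 1.32), 4 genes were lower and 39 higher. With this scaling the median of all genes with a mean FPKM of at least 1 went from -0.0062 to 0.36. A mean FPKM of at least 1 over both libraries was reached by 36 channel genes. Of these 36, 28 were lower and 8 higher, and among all 13804 genes at this level 51% were lower and 49% higher. Directions are given as deposited. With equal Actb only Cacng5, Cacna1g and Hcn3 of the 36 genes were lower (log2 ratios of -1.01, -0.18 and -0.039). The FPKM of the 44 genes summed to 1071 before puberty and 971 at puberty, 9.30% lower. In bulk tissue, fewer cells of a type and less RNA per cell cannot be told apart.

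**Figure D1:**
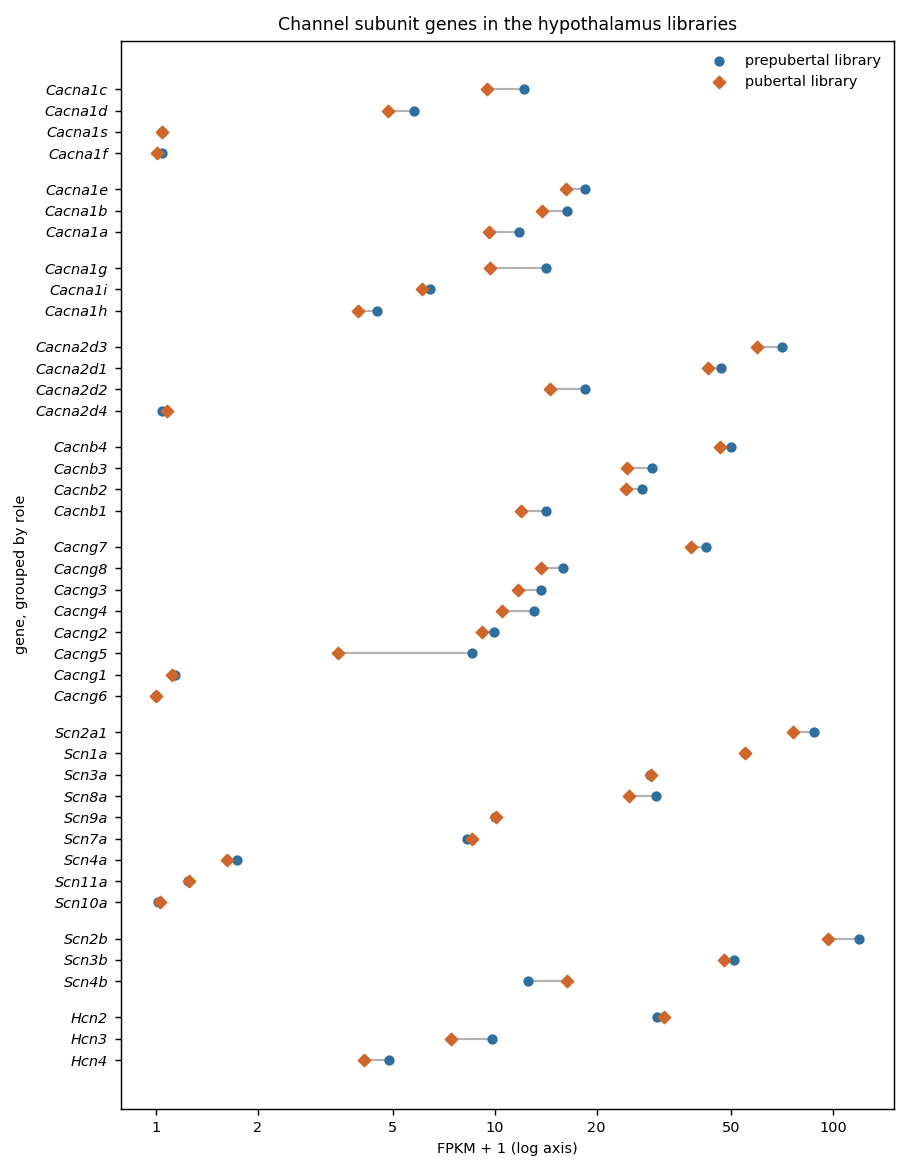
FPKM + 1 on a log axis for 41 of the 44 channel subunit genes, grouped by role, with the prepubertal library as circles and the pubertal library as diamonds (1 library per stage, no error bars). Cacng5 has the widest gap of the genes above 1 FPKM, 7.58 against 2.46 FPKM, while Scn1a lies at 53.7 and 53.8 FPKM.

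A difference of at least 1.5-fold in FPKM + 1 was reached by 1 of the 44 genes on the lower side, Cacng5, and by 0 on the higher side. Among all 22777 genes 1.86% were lower and 1.43% higher by this measure, and among the 13804 genes with a mean FPKM of at least 1 the shares were 2.41% and 1.77%. On the lower side the share of channel genes was thus near that of all genes. Cacna1g was also lower past this limit with a pseudocount of 0.1 or with the leading transcript per gene. With equal Actb 1 channel gene was lower and 1, Scn4b, higher past it, against 0.751% and 10.6% of all genes. By at least 1.2-fold, 8 channel genes were lower, Cacng5, Cacna1g, Hcn3, Cacna1c, Cacna2d2, Cacng4, Scn2b and Cacna1a, and 1, Scn4b, was higher. The corresponding shares were 11.3% and 8.63% of all genes, and 15.3% and 11.3% of genes with a mean FPKM of at least 1. With equal Actb, Cacng5 alone was lower and 12 channel genes were higher by 1.2-fold, against 2.88% and 43% of all genes.

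As deposited, the calcium channel genes were lower while the sodium channel genes were divided. With equal Actb the family medians were all above 0 (0.14 for calcium, 0.38 for sodium and 0.23 for HCN channel genes). The median of all genes with a mean FPKM of at least 1 was then 0.36. As deposited, all 21 calcium channel subunit genes with a mean FPKM of at least 1 were lower at puberty, with log2 ratios from -1.31 to -0.08 and a median of -0.24. With the leading transcript per gene 20 of the 21 were lower, all but Cacna1d. The summed FPKM of the calcium channel genes went from 429 to 364, 15.1% lower. With the libraries scaled to equal Actb, 2 of the 21 were lower and 19 higher. A single factor moves nearly all genes alike, so it does not test their place relative to the median of all genes. As deposited and with equal Actb alike, all 21 lay below the median of the genes with a mean FPKM of at least 1. So did 5 of the 11 sodium channel genes. The 11 sodium channel genes at this level were divided, 5 lower and 6 higher, with a median of 0.0012. The HCN genes had a median of -0.11 as deposited. The difference between families was not tested, since genes of 1 library are not replicates.

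**Figure D2:**
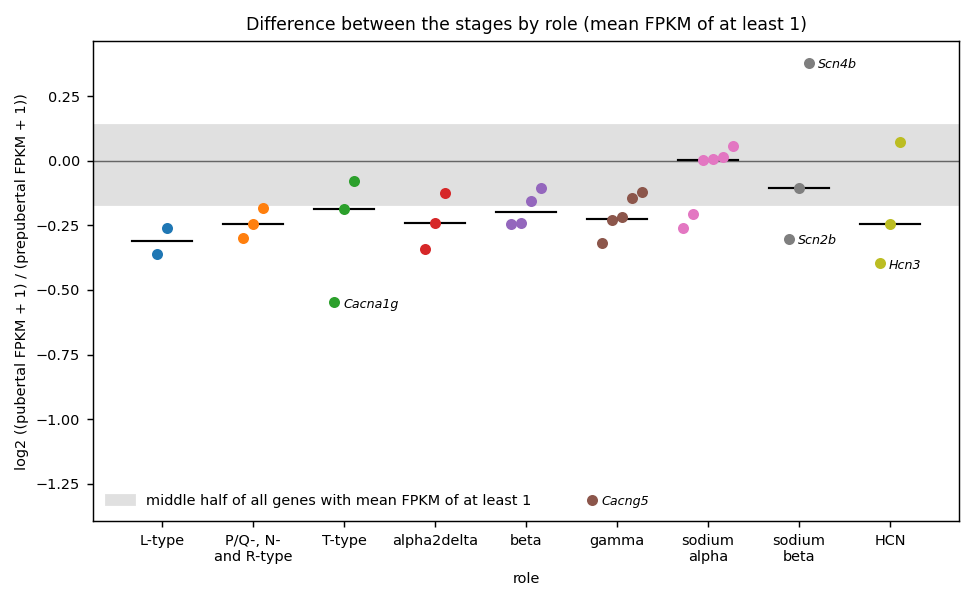
The log2 ratio of pubertal over prepubertal FPKM + 1 for 33 of the 36 genes with a mean FPKM of at least 1, 1 point per gene by role, with a black bar at the median of the points of each role and a grey band between the quartiles of all 13804 genes at this level (-0.17 and 0.14). Every calcium channel point lies below 0 as deposited. With the libraries scaled to equal Actb, 19 of the 21 calcium channel genes lie above 0, where the median of all 13804 genes is 0.36.

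Among the pore-forming calcium channel genes, the presynaptic P/Q-, N- and R-type genes were the most abundant class per length. Cacna1e, the R-type pore, had 17.5 FPKM before and 15.3 FPKM at puberty. Cacna1b, the N-type pore, had 15.4 and 12.8 FPKM, and Cacna1a, the P/Q-type pore, had 10.8 and 8.63 FPKM. All of these were lower at puberty as deposited and higher with equal Actb, with deposited log2 ratios of -0.18, -0.25 and -0.30. Together they made up 53.4% of the summed FPKM of the calcium channel pores before puberty and 55.8% at puberty.

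The L-type channels couple calcium entry to gene expression and, in neurons, to slow firing. Cacna1c went with 11.2 FPKM before and 8.52 FPKM at puberty (log2 ratio -0.36), and Cacna1d with 4.79 and 3.83 FPKM (-0.26). The leading transcript of Cacna1d alone was higher at puberty, with a log2 ratio of 0.14. The other L-type genes were near 0, as Cacna1s, the pore of skeletal muscle, had 0.0441 and 0.0451 FPKM and Cacna1f, the pore of the retina, had 0.0416 and 0.0106 FPKM. Of the skeletal muscle list, 5 of 6 genes were lower at puberty as deposited and 2 with equal Actb, and its highest gene, Acta1, had 8.41 and 6.72 FPKM.

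The T-type channels open at low voltage and support burst firing. Cacna1g had 13.2 FPKM before and 8.69 FPKM at puberty, 34.0% lower, a log2 ratio of -0.55 just under the 1.5-fold limit. With equal Actb its log2 ratio was -0.18. As deposited, 400 of the 13804 genes had a log2 ratio at or below that of Cacna1g. Cacna1i had 5.44 and 5.10 FPKM and Cacna1h had 3.50 and 2.95 FPKM, log2 ratios of -0.08 and -0.19. The order of the T-type genes was the same in both libraries, while the lead of Cacna1g over Cacna1i was smaller at puberty. Per length, T-type genes made up 27.0% of the calcium channel pore FPKM before puberty and 25.4% at puberty.

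**Figure D3:**
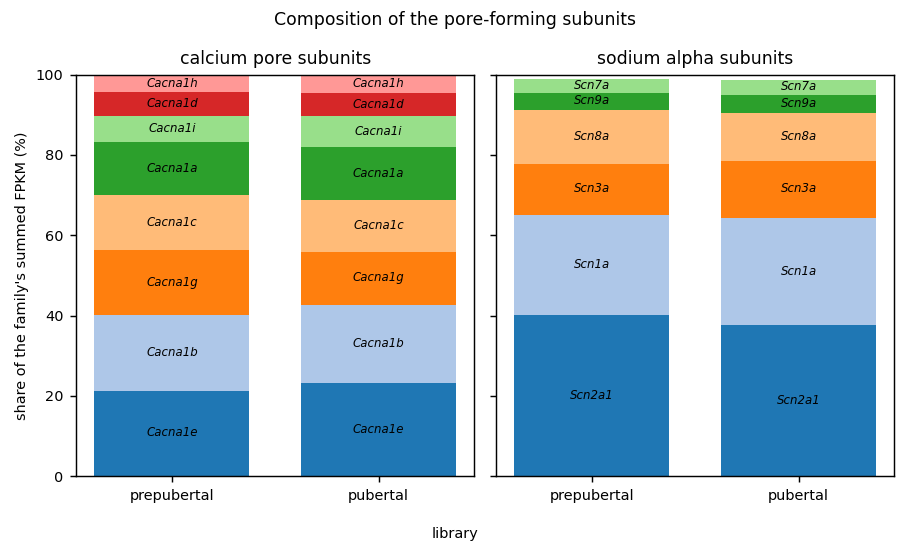
Share of each gene in the summed FPKM of its pore family, in percent from 0, with 1 bar per library and only genes of at least 3% in both libraries drawn. Scn2a1 was 40.1% and 37.5% of the sodium channel alpha subunits and Cacna1e 21.3% and 23.2% of the calcium channel pores, before and at puberty.

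The alpha2delta subunits, which carry the calcium channel pore to the membrane and include the binding sites of gabapentin on Cacna2d1 and Cacna2d2, were among the highest calcium channel genes. Cacna2d3 had 69.6 FPKM before and 58.7 FPKM at puberty, Cacna2d1 had 45.7 and 41.8 FPKM, and Cacna2d2 had 17.5 and 13.6 FPKM. The log2 ratios were -0.24, -0.12 and -0.34, and all 3 lay above 0 with equal Actb. Cacna2d4 was near 0 in both libraries (0.0451 and 0.0770 FPKM). The cytosolic beta subunits were also lower as deposited and higher with equal Actb. Cacnb4 had 49.0 and 45.5 FPKM, Cacnb3 28.2 and 23.7 FPKM, Cacnb2 26.3 and 23.5 FPKM, and Cacnb1 13.1 and 10.95 FPKM. Their log2 ratios lay between -0.24 and -0.11, and the order of the beta subunits was the same in both libraries.

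The gamma family held the widest difference. Cacng5, a type II TARP, had 7.58 FPKM before and 2.46 FPKM at puberty, 67.6% lower, with a log2 ratio of -1.31. Of the 13804 genes, 36 had a log2 ratio as low or lower. Its model is a single transcript of 828 nt, and the number of fragments behind the value is unknown. With the libraries scaled to equal Actb the gene was still lower, with a log2 ratio of -1.01. The other type II TARP, Cacng7, was the highest gamma gene, at 41.0 and 37.0 FPKM (-0.15). The type I TARPs stayed close together. Cacng8 had 14.9 and 12.7 FPKM, Cacng3 had 12.7 and 10.7 FPKM, Cacng4 had 12.1 and 9.51 FPKM, and Cacng2, the stargazin gene, had 8.98 and 8.16 FPKM. Their log2 ratios lay between -0.32 and -0.12, all below 0 as deposited and all above 0 with equal Actb. Cacng1, the gamma subunit of muscle, had 0.138 and 0.117 FPKM. Cacng4 and Cacng5 are next to each other among the protein-coding genes of the RefSeq assembly GRCr8, with log2 ratios of -0.32 and -1.31.

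As deposited, most markers of the telencephalon and of the thalamus were lower at puberty. The telencephalon list had a summed level of 93.6 FPKM before and 42.0 FPKM at puberty, with 5 of the 7 genes found lower, as deposited and with equal Actb. In this list CAMK2A had 59.6 and 24.8 FPKM, Slc17a7 26.2 and 12.8 FPKM and Neurod6 5.08 and 2.36 FPKM, and the cortical genes Tbr1 and Emx1 stayed at or below 0.515 FPKM. Of the thalamus list 4 of 6 genes were lower as deposited and 2 with equal Actb, among them Tcf7l2 (19.9 and 12.2 FPKM), and the list median was a log2 ratio of -0.34 as deposited. Its summed level was 502 and 517 FPKM, of which Calb2, higher at puberty, had 323 and 374 FPKM. The 8 pan-neuronal genes were all lower as deposited, but 6 of them were higher with equal Actb. Their median log2 ratio was -0.18 as deposited. With equal Actb it was 0.23, against 0.36 for all genes with a mean FPKM of at least 1. Their summed level was 2285 and 2112 FPKM. The part of these lists in the lower values of Cacng5, Cacna1g and the other calcium channel genes was not tested.

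Sodium channel alpha subunits showed no common direction as deposited, while Scn2a1 and Scn8a, lower as deposited, were higher with equal Actb (log2 ratios of 0.20 and 0.13). Scn2a1, listed as Scn2a in RefSeq and abundant on unmyelinated axons, was the highest, at 86.6 FPKM before and 75.05 FPKM at puberty (log2 ratio -0.20). Scn8a, the main alpha subunit of nodes of Ranvier and of mature axon initial segments, had 29.0 and 24.03 FPKM (-0.26). Scn1a, the alpha subunit of fast-spiking interneurons, had 53.7 and 53.8 FPKM (0.0012). Scn3a, which is typical of the immature brain, had 27.7 and 28.0 FPKM (0.01), so the ratio of Scn1a to Scn3a was 1.94 before and 1.92 at puberty. Scn3a was thus listed below Scn8a before puberty and above it at puberty, an order without a replicate check.

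Less abundant alpha subunits differed little. Scn9a, best known from sensory neurons, had 9.03 and 9.08 FPKM (log2 ratio 0.0069), and Scn7a, the sodium-sensing channel Nax of glia in sodium-sensing brain areas, had 7.27 and 7.60 FPKM (0.06). Scn4a, the alpha subunit of skeletal muscle, and Scn10a and Scn11a, of sensory neurons, reached at most 0.733 FPKM. Scn3a and Scn2a1 are neighbours in GRCr8, as are Scn1a and Scn9a, and Scn9a and Scn7a. In the first pair the log2 ratios were 0.01 and -0.20, and in the others all 3 genes lay between 0.0012 and 0.06.

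The sodium channel beta subunits ranged widely in level. Scn3b had 50.1 and 46.5 FPKM (log2 ratio -0.10). The disulfide-linked beta subunits differed in opposite directions as deposited, while both were higher with equal Actb (log2 ratios of 0.10 for Scn2b and 0.76 for Scn4b). Scn2b had 118 FPKM before and 95.8 FPKM at puberty, a log2 ratio of -0.30. Scn4b, whose tail supports resurgent sodium current, had 11.6 FPKM before and 15.3 FPKM at puberty, 32.7% higher, a log2 ratio of 0.38. Of the 13804 genes, 741 had a log2 ratio as high or higher. The ratio of Scn2b to Scn4b was 10.2 before and 6.25 at puberty. Both genes are direct neighbours in GRCr8.

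Among the HCN genes, Hcn2 was higher and Hcn3 and Hcn4 were lower as deposited. Of these, Hcn3 alone was lower with equal Actb, with a log2 ratio of -0.039. Hcn2 had 29.1 FPKM before and 30.7 FPKM at puberty (log2 ratio 0.07). Hcn3 had 8.82 and 6.46 FPKM, 26.7% lower (-0.40), and Hcn4, the slowest of the channels and best known from the sinoatrial node, had 3.87 and 3.11 FPKM (-0.25). The order of Hcn2, Hcn3 and Hcn4 in level was the same in both libraries.

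The start regions of 4 genes show how unlike the sequences around these channel genes are. RefSeq windows of 300 bases, 250 before and 50 after the annotated start in GRCr8, were found for 28 of the 44 genes (31 windows). They had a median GC content of 63.0% and a median of 16 CG dinucleotides, against 51.7% and 7 over all 33469 windows. Shown are Cacng5, which had the lowest log2 ratio (chr10:93336618-93336917, minus strand), the neighbours Scn2b and Scn4b, which differed in opposite directions as deposited (chr8:54322133-54322432 and chr8:54343623-54343922, plus strand), and Hcn2, the HCN gene with the highest level among those named above (chr7:10639408-10639707, minus strand). Each is written 5′ to 3′, and capitals mark CG dinucleotides.
Cacng5: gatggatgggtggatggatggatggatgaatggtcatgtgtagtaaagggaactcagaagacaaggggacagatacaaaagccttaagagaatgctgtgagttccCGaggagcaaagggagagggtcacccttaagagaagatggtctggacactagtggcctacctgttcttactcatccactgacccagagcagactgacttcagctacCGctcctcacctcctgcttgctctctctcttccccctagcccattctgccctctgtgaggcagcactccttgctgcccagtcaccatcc
Scn2b: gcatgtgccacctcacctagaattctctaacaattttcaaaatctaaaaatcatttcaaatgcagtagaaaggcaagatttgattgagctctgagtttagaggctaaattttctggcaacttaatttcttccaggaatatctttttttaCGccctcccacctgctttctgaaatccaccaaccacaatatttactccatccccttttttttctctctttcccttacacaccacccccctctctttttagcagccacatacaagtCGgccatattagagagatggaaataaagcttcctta
Scn4b: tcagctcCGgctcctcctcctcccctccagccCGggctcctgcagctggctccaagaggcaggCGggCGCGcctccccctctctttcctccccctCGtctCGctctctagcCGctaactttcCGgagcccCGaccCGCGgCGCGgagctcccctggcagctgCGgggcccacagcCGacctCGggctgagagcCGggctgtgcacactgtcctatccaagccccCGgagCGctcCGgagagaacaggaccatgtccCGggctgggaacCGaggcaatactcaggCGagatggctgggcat
Hcn2: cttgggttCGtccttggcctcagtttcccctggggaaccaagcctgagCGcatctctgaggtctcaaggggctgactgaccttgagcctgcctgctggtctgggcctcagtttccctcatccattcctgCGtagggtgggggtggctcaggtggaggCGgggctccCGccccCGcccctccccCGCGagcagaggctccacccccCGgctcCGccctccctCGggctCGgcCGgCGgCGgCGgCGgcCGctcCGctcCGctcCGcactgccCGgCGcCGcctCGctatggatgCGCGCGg

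The Cacng5 and Scn2b windows hold 2 CG dinucleotides each, at 53.0% and 39.0% GC, and the Scn4b and Hcn2 windows hold 24 and 28, at 70.0% and 72.7% GC. The GC box GGGCGG, searched on both strands like the other motifs, was in 17 of the 31 windows (54.8%) and in 33.1% of all windows, and 3 times in the Hcn2 window. CCAAT was in 16.1% of the windows of channel genes and 37.5% of all, and TATAAA in 6.45% and 14.2%. The core GGTCA of the estrogen response element was in 29.0% and 40.5%, with Cacng5 and Hcn2 among the 9 windows that hold it. The complete element GGTCANNNTGACC, which contains that core, was in 0 of the 31 windows and in 0.0269% of all, and the cAMP response element TGACGTCA in 0 and in 1.83%. Matches are descriptions of letters. The part of the higher GC content of the channel gene windows in these shares was not tested. The windows follow 1 or a few annotated starts per gene. None was found for Cacna1g.

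Several genes had more than 1 measured transcript. At least 2 transcripts of 1 FPKM or more in a library were found for 8 genes, and in 3 of these the transcripts differed in opposite directions. For Cacna1b, ENSRNOT00000048945 had 12.7 FPKM before and 9.003 FPKM at puberty, while ENSRNOT00000006162 had 2.73 and 3.83 FPKM. The share of the latter in the gene's FPKM was thus 17.7% before and 29.9% at puberty. For Cacna2d1, the minor transcript ENSRNOT00000034969 had 1.60 and 3.05 FPKM, 3.51% and 7.29% of the gene. For Cacna1d, ENSRNOT00000051371 had 1.66 and 1.93 FPKM, and ENSRNOT00000040759 had 1.08 and 0.489 FPKM. In Cacna1g the lower value was mainly that of ENSRNOT00000067416, with 9.57 FPKM before and 5.40 FPKM at puberty, against 3.60 and 3.29 FPKM for ENSRNOT00000055597. Transcripts of one gene share most of their sequence, so the division of fragments between them is an estimate.

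**Figure D4:**
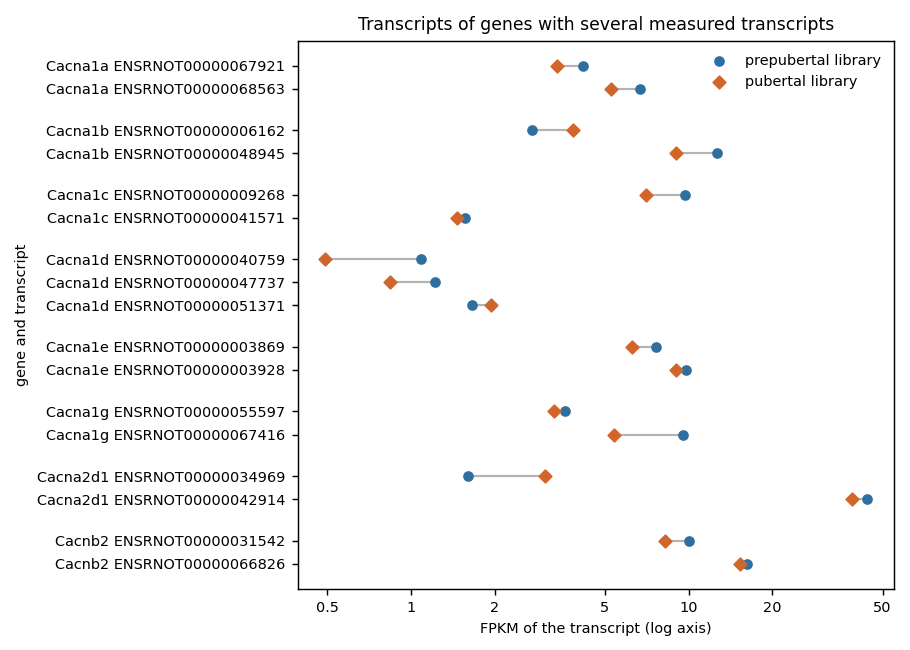
FPKM on a log axis for each transcript of at least 1 FPKM in a library, for the 8 genes with at least 2 such transcripts, with the prepubertal library as circles and the pubertal library as diamonds. Diamonds lie to the right of circles for 1 transcript each of Cacna1b, Cacna1d and Cacna2d1 and to the left for the others, as deposited.

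Transcript length moved with the difference between the stages over all genes. The 13804 genes with a mean FPKM of at least 1 were divided into 10 classes of equal size by the length of their leading transcript. The median log2 ratio was 0.08 in the class of 759 to 1140 nt, where 36.2% of genes were lower, and -0.13 in the class of 4454 to 17543 nt, where 77.1% were lower. Channel genes are long, with a median of 3910 nt among the 36 measured genes against 1995 nt. In the longest class, 11 of 15 channel genes were lower and their median was -0.19, and 9 of the 15 lay below the class median. Outside this class, 17 of 21 channel genes were lower, while the share of all genes lower ran from 36.2% to 64.2% in these shorter classes. Set against the median of their own length class, 27 of the 36 genes were lower, with a median of -0.13, among them 20 of the 21 calcium channel genes, all but Cacna1i. The 6 gamma genes, with models of 828 to 1266 nt, all lay below their class. Of the sodium channel alpha genes, Scn1a, Scn3a, Scn7a and Scn9a lay above their class by 0.13 to 0.18, and Scn2a1 and Scn8a below. The part of length in the lower values of long channel genes was not tested.

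**Figure D5:**
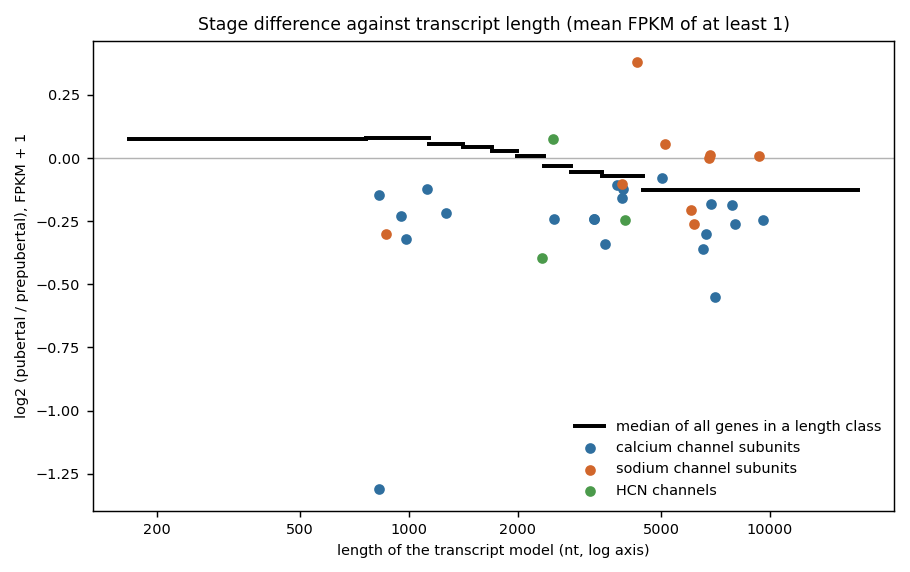
The log2 ratio of pubertal over prepubertal FPKM + 1 against the length of the transcript model in nt (log axis) for 33 of the 36 genes with a mean FPKM of at least 1, with black bars at the median of all genes in each of 10 length classes. Of the 21 calcium channel genes 20 lie below the bars, and the sodium channel genes Scn4b, Scn7a, Scn3a, Scn9a and Scn1a lie above them.

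Levels between genes depend on the models as well. The model length was a multiple of 3 for 22 of the 44 genes and for 53.7% of all genes, so some models, such as those of Cacng5 and Cacng7 (828 nt each), may hold the coding part alone. Comparisons of level between genes are therefore approximate, while the comparison of 1 gene between the libraries uses 1 model.

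Partner genes of these channels are set here against all genes with a mean FPKM of at least 1. Of the latter, 51% were lower as deposited, and their median log2 ratio was 0.36 with equal Actb. The FGF homologous factors, which bind the tail of sodium channels, were 2 higher and 2 lower of 4 as deposited and 4 higher with equal Actb, led by Fgf12 (143 and 149 FPKM). All 6 genes of the anchors at the axon initial segment and nodes were lower as deposited, with a median log2 ratio of -0.15. With equal Actb 5 of them were higher, with a list median of 0.24. The list was led by Sptan1 (268 and 257 FPKM). Among these Nfasc had 58.2 FPKM before and 35.4 FPKM at puberty, lower by more than 1.5-fold as deposited but not with equal Actb (log2 ratio -0.31). Of the sodium leak channel complex, 2 of 4 genes found were higher as deposited and 4 with equal Actb, and Nalcn, its pore, had 72.9 and 73.6 FPKM. Of the RGK GTPases, which bind the calcium channel beta subunit and hold channels back, 2 of 4 were lower on either scale, led by Rrad (9.39 and 6.35 FPKM). Of the HCN partners 3 of 5 genes found were lower as deposited and 1 with equal Actb, while Pex5l, the neuronal subunit that controls HCN trafficking, had 41.9 and 53.8 FPKM, a log2 ratio of 0.35. Of the active zone proteins that hold calcium channels near vesicles, 4 of 9 gene records were higher as deposited and 7 with equal Actb. Rims2 has 2 records in this list, one with 41.1 and 45.5 FPKM and one with 2.74 and 1.30 FPKM, the latter lower by more than 1.5-fold as deposited but not with equal Actb (-0.46). Of the calmodulin list, with the channel regulator Cabp1, 3 of 5 records were higher and 1 lower as deposited, 4 were higher with equal Actb, and the higher of the 2 Calm2 records had 1118 and 1266 FPKM. Calmodulin genes have near-identical coding sequences, so their values are uncertain.

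All 5 microglia genes were higher on either scale, and all 4 genes of oligodendrocyte progenitors were lower as deposited and higher with equal Actb. With equal Actb the median of all genes with a mean FPKM of at least 1 was 0.36. As deposited, the astrocyte, oligodendrocyte and choroid plexus lists were evenly divided and 3 of 4 cerebellum genes were lower, while with equal Actb 2 of 6 astrocyte genes and no oligodendrocyte, choroid plexus or cerebellum gene were lower. Deposited median log2 ratios were -0.12 for astrocytes, -0.06 for oligodendrocytes, -0.17 for their progenitors, 0.18 for microglia, -0.0099 for choroid plexus and -0.02 for cerebellum. The pituitary list had 5 of 6 genes higher as deposited and 6 with equal Actb, and a deposited median of 0.38, with Prl at 0 and 3.40 FPKM and Gh1 at 0.872 and 4.09 FPKM. The skeletal muscle list had a median of -0.15. The part of these lists in the channel values was not tested.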

How the data were processed

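The authors depleted ribosomal RNA, prepared strand-specific libraries, sequenced paired ends, aligned reads with TopHat and assembled transcripts with Cufflinks 2.1.1 and Scripture. FPKM were estimated by the authors in Cuffdiff 2.1.1 and deposited per transcript, scaled to library size and transcript length. The submitters' processing notes name the build Rnor_5.0, while the methods link another annotation. How the 3 rats per stage were combined is not stated. Transcript length in nt was deposited in the comparison table, whose fold changes, p-values and q-values were not used. The FPKM of the 62 channel transcripts were equal in both tables.

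FPKM were summed per gene, and log2((pubertal + 1) / (prepubertal + 1)) was computed with a pseudocount of 1 and no filter. A difference of at least 1.5-fold in FPKM + 1 was counted as past the limit. With 1 library per stage no test was made. The rule named the channel genes, with values printed from 1 FPKM in a library (a few values below it were added after they were seen), and partner genes past 1.5-fold or first in their list. Members and lists were chosen with earlier results of these data known. Sequences and gene order came from RefSeq (GRCr8), where 43 genes were matched by symbol and 1 by synonym. The lncRNA tables were not used. Some single genes are not reported here and not drawn, but enter the counts and medians. Sums, ratios, counts and length centring were checked on simulated data. Python 3.11.15 with numpy 2.4.6, pandas 2.3.3 and matplotlib 3.10.9 was used.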

Additional observations from a re-analysis of the deposited data

How the results depend on the processing

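With 1 library per stage, no alternative that leaves out a replicate was run. No paired analysis was possible because each stage has 1 library. Scaling to equal medians, the FPKM of the comparison table and centring in length classes of all genes moved no count or median by more than the limits used (1.5 times for counts, 0.1 for medians). Scaling to equal Actb turned the median of the 44 genes to 0.14, and the medians of the L-type (0.014), P/Q-, N- and R-type (0.13), T-type (0.13), alpha2delta (0.12), beta (0.19), gamma (0.10) and HCN genes (0.23) above 0. It moved those of sodium channel alpha and beta genes to 0.22 and 0.37. It left 4 genes lower and 39 higher, put 1, Scn4b, past 1.5-fold on the higher side, and gave 0.751% of all genes lower and 10.6% higher past this limit. The same scaling moved the median of all genes with a mean FPKM of at least 1 to 0.36. With a pseudocount of 0.1, 2 channel genes were lower past 1.5-fold, Cacng5 and Cacna1g, as were 6.88% of all genes, with 5.80% higher, and the L-type median was -0.33. With the transcript of the highest FPKM per gene these 2 genes were again past the limit, the L-type median was -0.021, and the log2 ratio of Cacna1d was above 0 (0.14). With a mean FPKM of at least 1 or 0.1 the L-type median was -0.31. At 2-fold, 0.373% of all genes were lower and 0.307% higher, and at 1.2-fold 8 channel genes were lower and 1 higher, against 11.3% and 8.63% of all genes. At 1.2-fold with equal Actb, an alternative chosen after seeing the data, 1 channel gene, Cacng5, was lower and 12 were higher, against 2.88% and 43% of all genes. Another alternative chosen after seeing the data, centring within length classes of genes with a mean FPKM of at least 1, gave medians of -0.12 (P/Q-, N- and R-type), -0.060 (T-type), -0.29 (gamma) and 0.13 (sodium channel alpha). The depth of the libraries is unknown, which limits what can be said of genes near 0 FPKM and of small differences.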
